A study of Homo sapiens with 9 samples.

Results

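Messenger RNA of 38 lysosome and autophagy genes was followed in HEK293T cells, a human embryonic kidney line, after 5 h with one of 2 fluorogenic ligands of the Pepper RNA aptamer. The members were listed by name for what they encode, though with earlier results of these data known. All 38 were found among the 57500 genes counted. They comprise 10 lysosomal hydrolases, 6 genes of membrane, sterol-handling and activator proteins, 9 genes of the proton pump, 7 genes around the transcription factors TFEB and TFE3, and 6 autophagy genes. Poly(A)-selected RNA of 3 biological replicates in each group was sequenced for 10 µM HBC530, which binds its aptamer without a covalent bond, for 10 µM MsOc3HBC, and for the vehicle DMSO. MsOc3HBC is the same kind of ligand with a mesylate at the end of a short linker, a leaving group that lets it alkylate the aptamer. The study profiled the transcripts to see whether the reactive ligand also affected the RNAs of the cell. All 3 groups are the same cell line without a genetic change named in the labels, and p-values measure the spread between these libraries. The library totals lay between 28056929 and 62205366 counts, and the 38 genes took between 0.254 and 0.276% of them. Replicate 3 of HBC530 and replicate 3 of MsOc3HBC stood apart from the other 7 libraries on the first principal component of all genes (36.94 and 48.79, against -20.28 to -4.28), and values without them are given beside results that move by much when they are left out. All 8 genes taken as typical of HEK293T were detected, from PAX2 with a mean of 150 counts to KRT8 with 7249, while of 9 genes typical of other cells COL1A1 (1432 counts) and COL3A1 (313) were detected and the other 7 had a mean of 33 counts or fewer.

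Lysosomes are the acidic compartments in which cells break down proteins, lipids, glycans and material delivered by autophagy. The vacuolar proton pump (v-ATPase) acidifies them, and soluble hydrolases such as cathepsins and glycosidases work in their lumen. TFEB and TFE3 are transcription factors that are held in the cytoplasm while nutrients are plentiful. The Rag GTPases and the folliculin complex (FLCN with FNIP1 or FNIP2) bring them to the kinase mTORC1 on the lysosomal surface, and when that signal falls or lysosomes are damaged the factors enter the nucleus and switch on lysosome and autophagy genes. Many of those genes carry an E-box, CACGTG, often within the longer core TCACGTGA (which contains CACGTG), near their start. Autophagy itself encloses cargo in a membrane to which LC3 and GABARAP proteins are attached, and it is started by the kinase ULK1. Stress kinases acting through ATF4 and CHOP use a different element, whose core was searched for as TGATGNAA.

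The promoters in the RefSeq table (GRCh38.p14, from 250 bases before to 50 bases after each gene start, 300 in all) held 26 of the 38 genes, with 31 promoters. CTSB, HEXA, NAGLU, LAMP2, PSAP, ATP6V0E1, ATP6V1A, ATP6V1B2, ATP6V1C1, ATP6V1H, RRAGD and UVRAG were not matched. On both strands, CACGTG occurred in 9 of the 31 promoters (29%), against 7.26% of all 35116 promoters and 9.14% of the 17492 promoters of genes tested here. TCACGTGA occurred in 5 of 31 (16.1%), those of CTSA, GAA, LAMP1, MCOLN1 and ATP6V0D1, against 0.98% of all promoters and 1.57% of those of tested genes. TGATGNAA occurred in 0 of 31, against 3.62% of all promoters and 2% of those of tested genes. The motif was unevenly spread over the roles, with CACGTG in 4 of 7 hydrolase promoters and in 0 of 5 autophagy promoters. A match of letters is a description and not a site of binding. Printed here are the promoters of the 4 members that differed between the ligands in the paired fit described further on (GAA, CTSD, ATP6V0D1 and FNIP1). That of LAMP1 is also printed, as it holds the most E-boxes of the 26 matched members, 6. Capitals mark CACGTG, extended to TCACGTGA where the longer core is present, and each sequence reads 5′ to 3′ on the strand of the gene. GAA lies at chr17:80101331-80101630 on the plus strand, CTSD at chr11:1763878-1764177 on the minus strand, LAMP1 at chr13:113296989-113297288 on the plus strand, ATP6V0D1 at chr16:67481108-67481407 on the minus strand and FNIP1 at chr5:131796968-131797267 on the minus strand.
GAA: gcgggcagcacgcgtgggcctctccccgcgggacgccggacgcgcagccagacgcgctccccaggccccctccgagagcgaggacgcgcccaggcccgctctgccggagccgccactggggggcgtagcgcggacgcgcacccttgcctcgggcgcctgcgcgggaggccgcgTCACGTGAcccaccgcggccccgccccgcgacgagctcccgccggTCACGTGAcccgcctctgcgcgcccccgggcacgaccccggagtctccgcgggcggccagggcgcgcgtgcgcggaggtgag
CTSD: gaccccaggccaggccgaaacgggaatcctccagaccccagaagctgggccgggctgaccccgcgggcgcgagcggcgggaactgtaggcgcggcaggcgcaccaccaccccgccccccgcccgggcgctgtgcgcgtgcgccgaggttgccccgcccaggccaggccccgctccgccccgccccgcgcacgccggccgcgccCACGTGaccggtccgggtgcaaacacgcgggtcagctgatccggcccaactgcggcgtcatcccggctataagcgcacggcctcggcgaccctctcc
LAMP1: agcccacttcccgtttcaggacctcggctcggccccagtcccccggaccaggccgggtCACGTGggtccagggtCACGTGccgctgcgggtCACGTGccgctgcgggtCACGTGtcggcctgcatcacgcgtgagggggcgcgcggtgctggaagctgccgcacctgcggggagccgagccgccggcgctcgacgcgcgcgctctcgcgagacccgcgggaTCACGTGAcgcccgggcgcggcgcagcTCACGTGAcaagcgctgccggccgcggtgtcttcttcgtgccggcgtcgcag
ATP6V0D1: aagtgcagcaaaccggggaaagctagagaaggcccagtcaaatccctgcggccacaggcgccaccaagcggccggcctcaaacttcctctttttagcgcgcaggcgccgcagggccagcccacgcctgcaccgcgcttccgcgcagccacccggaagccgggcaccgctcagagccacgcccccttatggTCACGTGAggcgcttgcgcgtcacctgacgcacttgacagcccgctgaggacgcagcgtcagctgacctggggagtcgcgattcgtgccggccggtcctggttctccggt
FNIP1: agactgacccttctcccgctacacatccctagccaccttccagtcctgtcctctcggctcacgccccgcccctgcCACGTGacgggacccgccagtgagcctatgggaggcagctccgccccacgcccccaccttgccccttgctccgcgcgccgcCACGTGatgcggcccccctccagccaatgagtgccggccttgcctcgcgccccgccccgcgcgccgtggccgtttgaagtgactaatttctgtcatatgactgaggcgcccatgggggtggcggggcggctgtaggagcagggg
The E-boxes of GAA begin at -76 and -31 relative to the gene start and both lie within the longer core. The 1 of ATP6V0D1 begins at -59 and is also within it. CTSD has its E-box at -47, and FNIP1 has 2, at -175 and -94, all 3 of them outside the longer core.

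**Figure D1:**
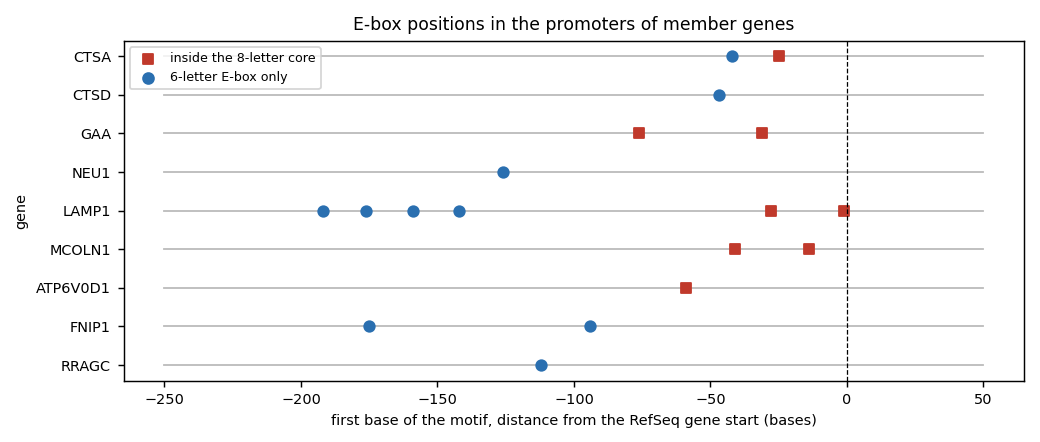
Positions of E-boxes in the promoters of the 9 member genes that hold one in a matched promoter. The distance in bases from the RefSeq gene start is on the horizontal axis and genes are lines. Squares are E-boxes inside the 8-letter core and circles are other E-boxes, and all squares lie between -76 and -1.

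Levels between genes are given as TPM, the transcript abundance unit that divides counts by exonic length, computed here from the deposited counts. Under DMSO the median member stood at 34.6 TPM, 5 members lay above 100 TPM and 6 below 10 TPM. PSAP, the precursor of the saposins that help hydrolases reach lipids, was the highest at 373 ± 7.93 TPM (SD, n = 3), followed by GLA, alpha-galactosidase A, at 286 ± 9.37 TPM. ATP6V0E1, a small subunit in the membrane part of the pump, had 187 ± 14.2 TPM and ATP6AP1, a pump accessory protein, 178 ± 9.75 TPM, and CTSL, the cysteine protease cathepsin L, had 130 ± 5.9 TPM. The transcription factor genes were far apart. TFE3 had 29.9, 34.7 and 34.8 TPM in the DMSO replicates, whereas TFEB had 2.76, 3.29 and 3.18 TPM. CTSZ, the carboxypeptidase cathepsin Z, was the lowest member at 1.95 ± 0.157 TPM. The lowest of the other lists were NPC1, the cholesterol exporter of the lysosomal membrane (17.2 ± 0.135 TPM), ATP6V1H, a regulatory subunit of the pump (23.6 ± 0.564 TPM), and WIPI1, which binds the lipid of forming autophagosomes (6.24 ± 0.883 TPM). GABARAP led the autophagy genes with 70.3 ± 3.55 TPM. In the DMSO order of the 38 genes, 22 of 37 neighbouring pairs had ranges that overlapped, so the exact order of those neighbours is not resolved.

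**Figure D2:**
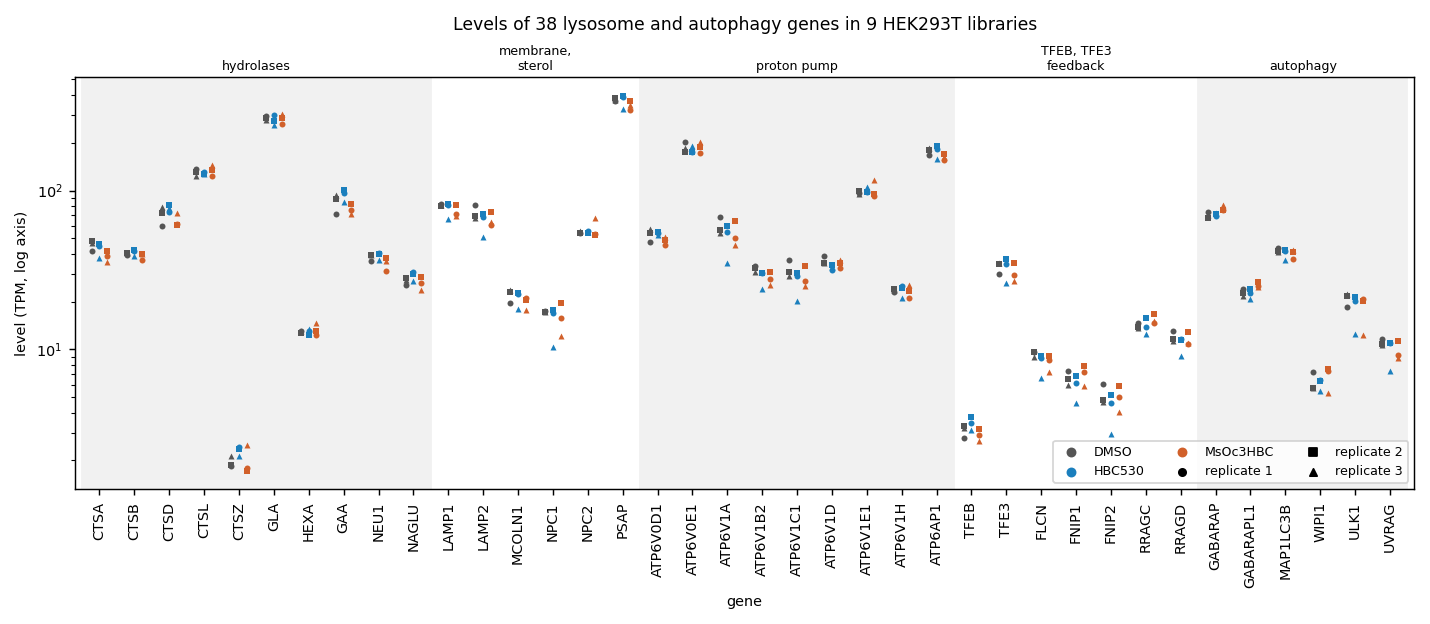
Level of each member in TPM (log axis) in the 9 libraries, by role, with colours for the treatment and marker shapes for the replicate. Members range from TFEB and CTSZ at a few TPM to PSAP at over 300 TPM, and the treatments lie close together within a gene, with the triangle of replicate 3 of HBC530 low in NPC1, ULK1 and FNIP2.

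Neither ligand moved these genes past the test against DMSO. Fold changes are given on the log2 scale from counts scaled with TMM factors, treated relative to reference, and a gene was called at an adjusted p under 0.05 in the quasi-likelihood test of edgeR, adjusted by Benjamini-Hochberg over all genes of a comparison. With HBC530 against DMSO, 0 of the 38 members were called, where 0.017% of the 17684 genes tested were. At an unadjusted p under 0.05 it was 0 members, where 5.07% of all genes passed, and DESeq2 and limma-voom also called 0 (beside 0.136 and 0.0283% of all genes). With MsOc3HBC against DMSO, 0 members were called beside 0.154% of 17514 genes. At an unadjusted p under 0.05 it was 1, GABARAPL1, beside 10.9% of all genes, and DESeq2 and limma-voom called 0 (beside 0.862 and 0.12%). Both comparisons share the DMSO libraries, and in bulk RNA a change in all cells and a larger change in some of them cannot be told apart.

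The sizes of the differences were small and bounded. With HBC530 the fold changes of the members ran from -0.24 (FNIP2) to 0.29 (CTSZ), with a median of 0.03 beside 0.00 over all genes, and with MsOc3HBC from -0.20 (ULK1) to 0.22 (GABARAPL1), with a median of -0.03 beside 0.01. Without replicate 3 of the ligand they ran from -0.14 (ATP6V1D) to 0.27 (CTSZ) with HBC530 and from -0.21 (CTSD) to 0.25 (WIPI1) with MsOc3HBC. The 95% interval of the fold change lay wholly within 0.5 of 0 for 36 of the 38 members in each of the 2 comparisons (94.7%), which was so for 59.7 and 55.9% of all genes. Members have high counts, at least 45 in every library, which narrows their intervals relative to all genes. The libraries of a treatment did not overlap those of DMSO for 8 members with HBC530. Those higher were CTSB, CTSZ, GAA, NAGLU and TFEB (5, or 13.2% of members, beside 7.23% of all genes), and those lower were ATP6V1B2, ATP6V1C1 and FLCN (3, beside 6.63%). With MsOc3HBC, RRAGC and GABARAPL1 lay above DMSO (2, beside 9.45%) and CTSA, LAMP1, ATP6V1B2 and FLCN below it (4, beside 8.98%).

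**Figure D3:**
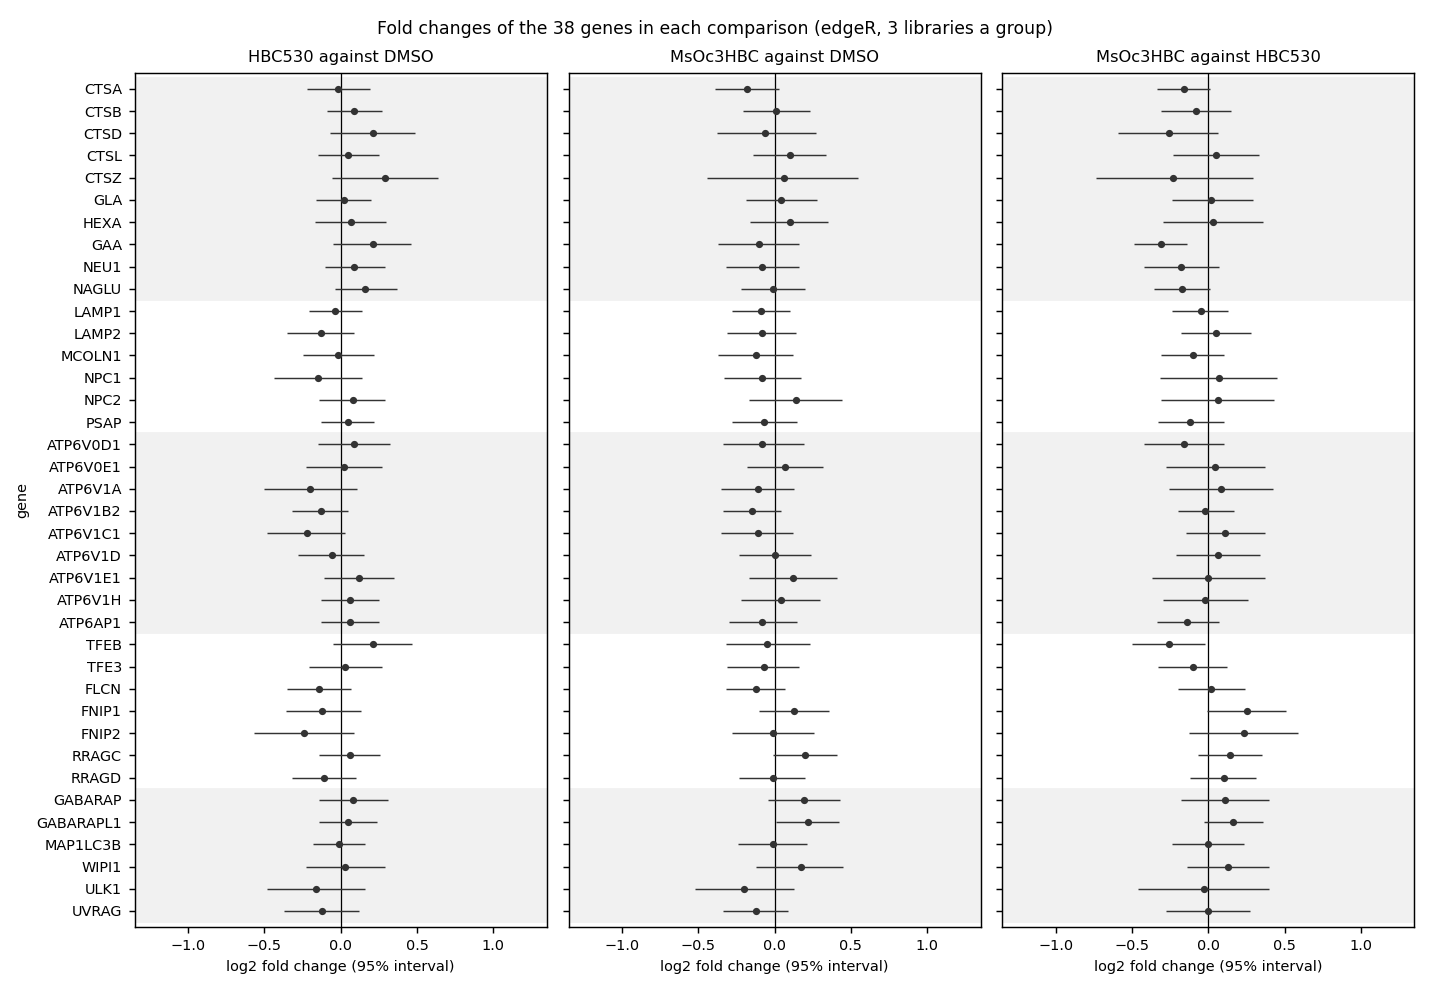
Log2 fold change of each member with its 95% interval from edgeR in the 3 comparisons, by role (shaded bands). Most intervals span 0 and stay within 0.5 of it. Those of GAA and TFEB between the ligands and of GABARAPL1 against DMSO do not reach 0.

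Among the hydrolases, 9 of 10 had a fold change above 0 with HBC530 and 5 of 10 with MsOc3HBC (beside 51.1 and 52.4% of all genes). The medians were 0.09 and 0.00, and 0 passed the test in either. Without replicate 3 of HBC530, CTSL (-0.01) and HEXA (-0.04) fell below 0 with HBC530 and GLA stood at 0.00. Without replicate 3 of MsOc3HBC, the 10 fold changes with MsOc3HBC lay between -0.21 (CTSD) and -0.00 (NAGLU). GAA (ENSG00000171298, chr17:80101556-80119879 in GRCh38, plus strand) encodes the acid alpha-glucosidase that degrades lysosomal glycogen. It had 105, 134 and 145 CPM (counts scaled to a common library size) under DMSO, 146, 149 and 148 CPM with HBC530 and 117, 119 and 120 CPM with MsOc3HBC. Replicates of each ligand were close together while the DMSO replicates were spread around them, so HBC530 lay just above all DMSO libraries and MsOc3HBC inside their range. The fold change was 0.21 (SE 0.116, adjusted p = 0.751 in edgeR) with HBC530 and -0.10 (SE 0.119, adjusted p = 0.772) with MsOc3HBC. Both rested on the DMSO libraries, as GAA had 0.08 and -0.23 without replicate 1 of DMSO and 0.31 and -0.00 without replicate 3 of DMSO. NAGLU, which removes N-acetylglucosamine from heparan sulfate, had 21.9, 24.6 and 24.7 CPM under DMSO, 26.9, 25.8 and 27.2 CPM with HBC530 and 23.5, 23.9 and 23.4 CPM with MsOc3HBC. HBC530 was highest, with a fold change of 0.16 against DMSO (SE 0.0923, adjusted p = 0.751 in edgeR). CTSZ, read from 45 to 81 counts per library, had the widest interval of the list, from -0.06 to 0.64 with HBC530, around a fold change of 0.29 (SE 0.16, adjusted p = 0.751 in edgeR). Its 3 values under DMSO were 1.07, 1.12 and 1.3 CPM, against 1.45, 1.37 and 1.49 CPM with HBC530 and 1.1, 0.988 and 1.68 CPM with MsOc3HBC. CTSA, protective protein and cathepsin A, had 68.9, 81.7 and 81.6 CPM under DMSO, 77.3, 77.3 and 74.4 CPM with HBC530 and 68, 68.5 and 68 CPM with MsOc3HBC. MsOc3HBC lay below every other library here, with a fold change against DMSO of -0.18 (SE 0.0969, adjusted p = 0.52 in edgeR). CTSA shares 28.5% of its exonic bases with other genes, PLTP and NEURL2 among them. The strand setting of the counting is not given in the sources used here, so how reads in those bases were counted is not known. CTSD, the aspartic protease cathepsin D, shares 52.7% in the same way, though the overlapping gene with the most counts had a mean of only 26 counts. It had 53, 65.5 and 73.6 CPM under DMSO, 67, 73 and 81.8 CPM with HBC530 and 57.8, 53.1 and 73.9 CPM with MsOc3HBC, and the 3 groups overlapped. CTSB, CTSL, GLA, HEXA and NEU1 had fold changes between 0.02 and 0.09 with HBC530 and between -0.08 and 0.10 with MsOc3HBC, and without replicate 3 of the ligand between -0.04 (HEXA) and 0.07 (NEU1) and between -0.17 (NEU1) and -0.02 (CTSL).

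Membrane, sterol and activator genes had fold changes between -0.15 and 0.08 (HBC530) and between -0.12 and 0.14 (MsOc3HBC), and 0 of 6 passed. Without replicate 3 of the ligand the ranges were -0.06 (LAMP2) to 0.07 (PSAP) and -0.14 (PSAP) to 0.03 (NPC1). LAMP1, the abundant glycoprotein of the lysosomal membrane with 6 E-boxes in the promoter printed above, had 135, 134 and 139 CPM under DMSO, 135, 135 and 128 CPM with HBC530 and 122, 131 and 130 CPM with MsOc3HBC. Its intervals against DMSO spanned -0.21 to 0.14 (HBC530) and -0.28 to 0.10 (MsOc3HBC). MCOLN1, the lysosomal calcium channel whose promoter holds 2 copies of the longer core, had fold changes of -0.02 (interval -0.25 to 0.22) and -0.12 (interval -0.37 to 0.12). The upper ends of these 4 intervals lay at or below 0.22 on the log2 scale. Those of the other members with an E-box in a matched promoter ran from 0.13 (FNIP1) to 0.49 (CTSD) with HBC530. With MsOc3HBC they ran from 0.03 (CTSA) to 0.41 (RRAGC). PSAP had 338, 361 and 359 CPM under DMSO, 368, 367 and 357 CPM with HBC530 and 310, 331 and 366 CPM with MsOc3HBC. The ligand groups overlapped DMSO. NPC1 was low in replicate 3 of both ligands, at 35.4 CPM with HBC530 and 40.2 CPM with MsOc3HBC, against 47.8 to 55.3 CPM in the other 7 libraries.

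The proton pump genes did not move as a group. Of 9, 5 had a fold change above 0 with HBC530 and 4 with MsOc3HBC (beside 51.1 and 52.4% of all genes). The medians were 0.02 and -0.08, and 0 passed. ATP6V1B2, which encodes a subunit of the ATP-splitting head, had 73.9, 74.4 and 71.4 CPM under DMSO, 69.2, 67.6 and 63.2 CPM with HBC530 and 65.2, 67.3 and 65.1 CPM with MsOc3HBC. Every ligand library lay below every DMSO library, by -0.13 (SE 0.0819, adjusted p = 0.751) and -0.15 (SE 0.0845, adjusted p = 0.534) on the log2 scale in edgeR, and the 2 values rest on the same DMSO libraries. ATP6V1C1, a subunit of the stalk that joins head and membrane parts, had 61.2, 52 and 50.4 CPM under DMSO, 49.4, 50.3 and 40.3 CPM with HBC530 and 47.4, 55.1 and 48.2 CPM with MsOc3HBC. Its fold change with HBC530 was -0.22 (SE 0.114, adjusted p = 0.751 in edgeR), and its unadjusted p was the smallest of the members in that comparison. Without replicate 3 of HBC530, the low library, the fold change was -0.12. ATP6V0D1, a subunit of the membrane part, had 110, 130 and 141 CPM under DMSO, 129, 129 and 146 CPM with HBC530 and 111, 112 and 138 CPM with MsOc3HBC, all overlapping. The other 6 pump genes had fold changes from -0.20 (ATP6V1A) to 0.12 (ATP6V1E1) with HBC530 and from -0.11 (ATP6V1A) to 0.12 (ATP6V1E1) with MsOc3HBC. Both ends rested on replicate 3 of HBC530, without which ATP6V1A had -0.04 and ATP6V1E1 0.01, and without replicate 3 of MsOc3HBC they had -0.07 and -0.06.

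The genes around TFEB and TFE3 include targets of the factors that feed back on them, FLCN, FNIP1, FNIP2 and the Rag GTPase genes RRAGC and RRAGD. TFEB had 4.43, 5.43 and 5.37 CPM under DMSO, 5.66, 6.07 and 5.97 CPM with HBC530 and 4.91, 4.96 and 4.89 CPM with MsOc3HBC. HBC530 lay above all others and MsOc3HBC within the DMSO range, with fold changes of 0.21 (SE 0.117, adjusted p = 0.751 in edgeR) and -0.05 (SE 0.125, adjusted p = 0.916). With each library left out in turn the first lay between 0.13 and 0.26 and the second between -0.13 and 0.00. TFE3 overlapped across all groups, at 36.4, 43.3 and 44.6 CPM under DMSO, 43.2, 45.4 and 38 CPM with HBC530 and 37.6, 42.2 and 38 CPM with MsOc3HBC. FLCN had 26.9, 27.3 and 26.1 CPM under DMSO, 25.4, 25.4 and 21.8 CPM with HBC530 and 25.3, 24.9 and 23.3 CPM with MsOc3HBC. As with ATP6V1B2, both ligands lay below DMSO, with fold changes of -0.14 (SE 0.0952, adjusted p = 0.751 in edgeR) and -0.12 (SE 0.0908, adjusted p = 0.634). Without replicate 3 of the ligand FLCN had -0.07 and -0.09. RRAGC had 21.5, 20.9 and 21 CPM under DMSO, 21.1, 23.2 and 21.9 CPM with HBC530 and 22.8, 24.3 and 25.6 CPM with MsOc3HBC. MsOc3HBC was above DMSO in every library, by 0.20 (SE 0.094, adjusted p = 0.472 in edgeR), and HBC530 overlapped it. RRAGD, its paralogue, had fold changes of -0.11 and -0.01. FNIP2 had the lowest fold change of the members with HBC530, -0.24 (SE 0.149, adjusted p = 0.751 in edgeR), from 18.7, 15.2 and 15.2 CPM under DMSO and 14.6, 16.1 and 10.8 CPM with HBC530, and -0.01 with MsOc3HBC. The last HBC530 value is again that of replicate 3.

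Autophagy genes had medians of 0.01 with HBC530 and 0.08 with MsOc3HBC. GABARAPL1 (ENSG00000139112, chr12:10212458-10223130, plus strand) belongs to the ubiquitin-like family attached to autophagosome membranes. It had 27.9, 26.8 and 26.4 CPM under DMSO, 27.1, 28.2 and 28.8 CPM with HBC530 and 30.4, 30.5 and 33.2 CPM with MsOc3HBC. All MsOc3HBC libraries were above the other 6, while HBC530 overlapped DMSO. The fold change of MsOc3HBC was 0.22 (SE 0.0922, interval 0.01 to 0.42, adjusted p = 0.436 in edgeR), the largest of the members, and between 0.17 and 0.23 with each library left out in turn. GABARAP, of the same family, had 47.6, 44.1 and 47.7 CPM under DMSO, 45.9, 46.1 and 55.7 CPM with HBC530 and 51.5, 47.5 and 60.2 CPM with MsOc3HBC. Its fold change with MsOc3HBC was 0.19 (SE 0.108, adjusted p = 0.532 in edgeR), 0.09 without replicate 3 of MsOc3HBC, and the groups overlapped. GABARAP shares 55.7% of its exonic bases with other genes, the most counted of which had a mean of 47.4 counts. MAP1LC3B, which encodes LC3B, was near 0 in both comparisons, at -0.01 (interval -0.18 to 0.16) and -0.01 (interval -0.24 to 0.21). WIPI1 had fold changes of 0.03 and 0.17, ULK1 of -0.16 and -0.20 and UVRAG, which acts in autophagosome and endosome traffic, of -0.12 and -0.12. Without replicate 3 of the ligand WIPI1 had 0.03 and 0.25 and UVRAG -0.01 and -0.12. WIPI1, with a mean of 312 counts, shares 28.1% of its exonic bases with other genes, among them ARSG with a mean of 173 counts. The values of ULK1 rested on replicate 3. The gene had 32.2 CPM in that library of HBC530 and 30.8 CPM in that of MsOc3HBC, against 40.1 to 50.5 CPM in the other 7, and without the replicate in question the fold changes were -0.01 and -0.04.

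Between the 2 ligands, which were matched in dose and time and form 1 pair of compounds, the unpaired test also called 0 of 38 members, where 0% of 17397 genes were called. Unadjusted p was under 0.05 for 2 members, GAA and TFEB, beside 7.32% of all genes, limma-voom called 0 and DESeq2 called 1, GAA (adjusted p = 0.022), where DESeq2 called 55 of all genes (0.316%). Fold changes, MsOc3HBC relative to HBC530, ran from -0.31 (GAA) to 0.25 (FNIP1) with a median of -0.00, and the 95% interval lay within 0.5 of 0 for 34 of 38 (89.5%, beside 51% of all genes). The libraries of MsOc3HBC all lay below those of HBC530 for CTSA, GAA, NAGLU, ATP6AP1 and TFEB (5, or 13.2%, beside 8.49% of all genes) and above them for GABARAPL1 (1, beside 7.03%). NAGLU had a fold change of -0.17 (SE 0.081, adjusted p = 0.687 in edgeR) and GABARAPL1 of 0.16 (SE 0.0862, adjusted p = 0.706). By role, the medians were -0.17 for hydrolases, -0.00 for membrane genes, -0.00 for the pump, 0.10 for the genes around TFEB and TFE3, and 0.05 for autophagy.

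Ligand libraries with the same replicate number deviated together across genes (r = 0.167, 0.368 and 0.433 for numbers 1, 2 and 3). Replicate 2 of MsOc3HBC also did so with replicate 1 of HBC530 (r = 0.296). Replicate 3 stood apart in both ligands and enters each group mean, so these values cannot show that numbers 1 and 2 pair the libraries. The block used further on rests on the replicate numbers. The ratio of MsOc3HBC to HBC530 was also read within each number. It was below 1 in all 3 pairs for 9 members (23.7%, beside 22.9% of all genes) and above 1 in all 3 for 7 (18.4%, beside 23.1%). The 9 were CTSA, CTSD, GAA, NEU1, NAGLU, MCOLN1, ATP6V0D1, ATP6AP1 and TFEB, so 5 of the 10 hydrolases were among them and 0 of the 6 autophagy genes. The 7 were ATP6V0E1, ATP6V1D, FNIP1, FNIP2, RRAGC, GABARAP and GABARAPL1. GAA gave log2 ratios of -0.32, -0.32 and -0.30 in the 3 pairs, the closest set of any of these members. TFEB gave -0.20, -0.29 and -0.29, CTSD -0.21, -0.46 and -0.15, and ATP6V0D1 -0.22, -0.21 and -0.09. FNIP1, the partner of folliculin, gave 0.26, 0.18 and 0.31, from 14.4, 15.4 and 12.4 CPM with HBC530 and 17.2, 17.5 and 15.3 CPM with MsOc3HBC.

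**Figure D4:**
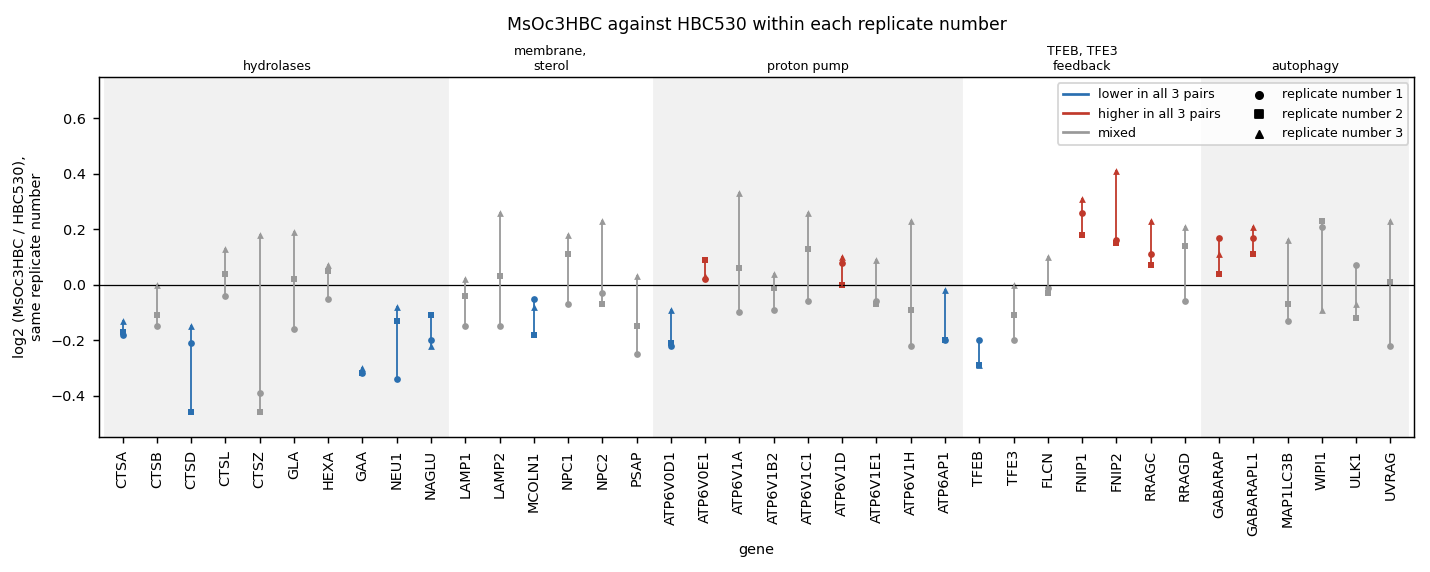
Log2 ratio of MsOc3HBC to HBC530 for each member between libraries of the same replicate number (marker shape), with a line joining the 3 pairs. Blue marks the 9 members lower and red the 7 members higher in all 3 pairs. The points of GAA coincide near -0.3, and replicate number 3 lies high for many pump and membrane genes.

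With the replicate number as a block, 4 members were called in edgeR. GAA, CTSD and ATP6V0D1 were lower with MsOc3HBC (3, or 7.89% of members, beside 6.9% of all genes) and FNIP1 was higher (1, or 2.63%, beside 4.54%), so the members' shares were near or below those of all genes. The fold change of GAA was -0.31 (SE 0.0466, adjusted p = 0.00256 in edgeR with the block, against 0.643 without it). CTSD had -0.27 (SE 0.0627, adjusted p = 0.0151 with the block, 0.717 without), and ATP6V0D1 had -0.17 (SE 0.0493, adjusted p = 0.0421 with the block, 0.788 without), both in edgeR. FNIP1 had 0.25 (SE 0.0686, adjusted p = 0.0344 in edgeR with the block, 0.685 without). CTSA, at -0.16 (adjusted p = 0.0503 in edgeR with the block), and TFEB, at -0.26 (adjusted p = 0.102), were not called. Of the 9 members with an E-box in a matched promoter these 4 were called, and CTSA, NEU1, LAMP1, MCOLN1 and RRAGC were not. FNIP1 went the other way from the other 3. The share of calls among all genes with an E-box was not computed, so a link between E-box and call was not tested. Without replicate 3 of both ligands and with no block, only replicates 1 and 2 of each ligand were left. In that fit 7 members were called (18.4%, beside 9.16% of 17840 genes), all of them lower with MsOc3HBC. They were GAA (-0.33), CTSD (-0.34), ATP6V0D1 (-0.22), ATP6AP1 (-0.21), PSAP (-0.20), NEU1 (-0.24) and CTSA (-0.19), with adjusted p between 0.0018 and 0.047 in edgeR. FNIP1 was not called there.

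These ligand differences moved with base composition. Across the 38 members, the fold change between the ligands correlated with exonic GC content at r = -0.78, and across all genes tested at r = -0.60, a description in which all points share the same 6 libraries. GAA (63.7% GC), CTSD (64.2%) and ATP6V0D1 (56.4%) lie above the members' median of 50.3%, FNIP1 (40.3%) lies below it, and the hydrolases as a list had a median of 56.4% against 43.3% for the pump and 43.1% for the genes around TFEB and TFE3. With trends with GC content and exonic length removed in each library and the block kept, 0 members were called in edgeR, where 1.85% of all genes were. The smallest adjusted p was then that of GAA, whose fold change was -0.15 (adjusted p = 0.149 in edgeR), CTSD had -0.12, ATP6V0D1 -0.09, FNIP1 0.14 and TFEB -0.12. The 4 genes kept their direction and lost their calls. The 7 members called without replicate 3 of both ligands also lie above the members' median GC content, at 52.2 (NEU1) to 64.2% (CTSD). That fit was not run with the trends removed. GABARAPL1, at 48.9% GC, had 0.15 between the ligands and 0.21 against DMSO after the removal, beside 0.16 and 0.22 before it. Within the vehicle group, replicate 3 of DMSO against its replicates 1 and 2 correlated with GC content at r = 0.83 over the members. Within the ligand groups compared here the same correlation was 0.16 (HBC530) and -0.01 (MsOc3HBC). How far the ligand differences of these genes follow from GC content was not tested.

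Replicate 3 of the ligands departed from its group in many of the members. Relative to the mean of replicates 1 and 2 it was more than 0.2 lower on the log2 scale for 10 members with HBC530 and for 4 with MsOc3HBC, and more than 0.2 higher for 8 and 15. The corresponding numbers under DMSO were 0 and 6. NPC1 deviated by -0.52 and -0.36 in the 2 ligands, ULK1 by -0.50 and -0.54 and FNIP2 by -0.51 and -0.25, and these 3 were low in both. Longer genes tended to be low, with r = -0.55 (HBC530) and -0.53 (MsOc3HBC) between the deviation and log2 exonic length over 38 members, and -0.17 under DMSO. Not all long genes were low. With HBC530, HEXA with the longest exons deviated by 0.32, ATP6V0D1 by 0.18 and CTSB by 0.11. For these 3 genes the range within each ligand group exceeded the differences between group means, and without replicate 3 the fold changes against DMSO were 0.01 and 0.03 (NPC1), -0.01 and -0.04 (ULK1), and -0.09 and 0.07 (FNIP2).

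**Figure D5:**
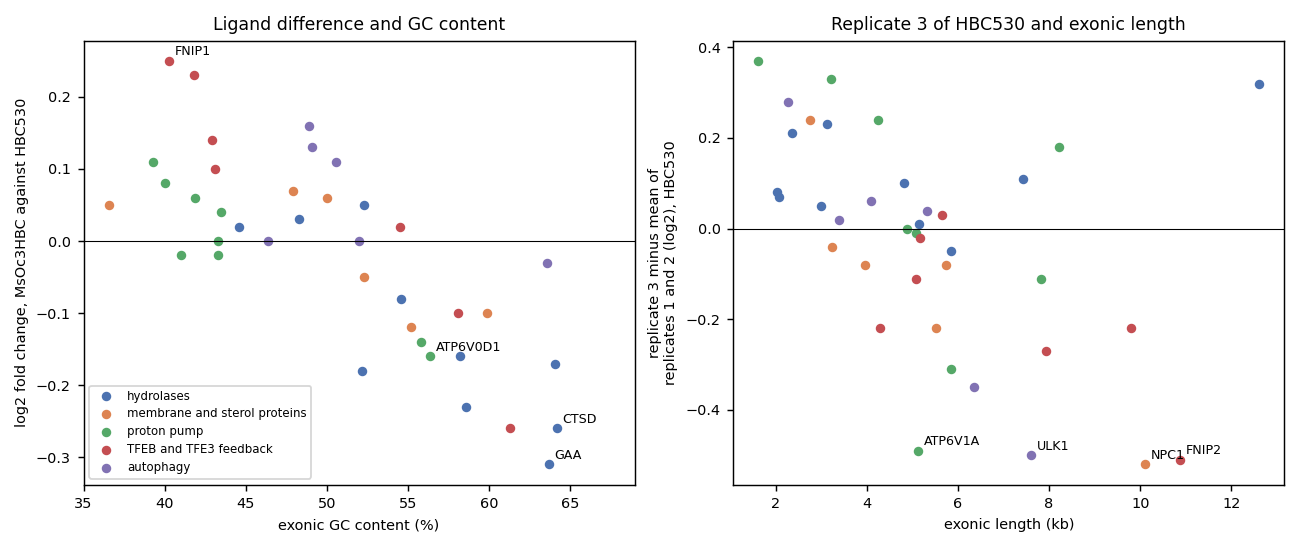
Left, log2 fold change of MsOc3HBC against HBC530 for the 38 members against exonic GC content in percent. Right, deviation of replicate 3 of HBC530 from the mean of replicates 1 and 2 on the log2 scale against exonic length in kb. GAA and CTSD sit at high GC and low fold change, FNIP1 at the other end, and NPC1, ULK1 and FNIP2 are among the longer genes with the lowest deviations.

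A wider set of 126 lysosome and autophagy genes outside the 38, of which 122 were tested, had fold changes from -0.24 to 0.52 for HBC530 against DMSO, from -0.38 to 0.48 for MsOc3HBC against DMSO and from -0.35 to 0.46 for MsOc3HBC against HBC530. In the unpaired tests 0 of them were called in each comparison, with 1, 9 and 5 at an unadjusted p under 0.05 in edgeR in that order (0.82, 7.38 and 4.1%, beside 5.07, 10.9 and 7.32% of all genes). With the block between the ligands, 14 were called, 2 higher (1.64%, beside 4.54% of all genes) and 12 lower (9.84%, beside 6.9%) with MsOc3HBC. The lower ones included MLST8 (-0.35) and RPTOR (-0.26), subunits of mTORC1, TSC2 (-0.28), which restrains that kinase, the acid phosphatase gene ACP2 (-0.29), and ATG9A (-0.23) and ATG4B (-0.24), which act in autophagosome formation. Their adjusted p lay between 0.00184 and 0.0101 in edgeR with the block. EPG5 (0.28) and TMEM41B (0.21), both autophagy genes, were the 2 higher. With GC content and length trends also removed, 0 of the 14 stayed called.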

How the data were processed

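RNA of the 9 libraries was measured by paired-end sequencing. According to the methods and the submitters' processing notes, the authors used Trimmomatic 0.36 for trimming and STAR 2.5.2b for alignment to GRCh38, and tallied unique gene hits with featureCounts of Subread 1.5.2, and their deposited files hold raw counts per gene. The annotation release and strand setting are not given in the sources used here. The signal columns of their 2 deposited tables were checked to be those counts divided by 1 size factor per library, and served only for gene names. The fold changes and p-values of the authors in these tables were not used.

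Counts were analysed in R 4.3.3 with edgeR 4.0.16 (filterByExpr at its defaults, TMM factors, quasi-likelihood test), 3 libraries against 3, with Benjamini-Hochberg adjustment over all genes of a comparison. CPM values are scaled by TMM over all 9 libraries, and TPM values use exonic lengths. Alternatives were DESeq2 1.42.0, limma-voom (limma 3.58.1), other scaling factors and count filters, all libraries in 1 fit, a replicate block, splines (5 degrees of freedom, natural) that take out each library's trend over GC content and over length, and libraries left out. The fits were also run on simulated counts with known changes. Those counts held no replicate effect and no GC content or length trend, so they could not test the block or the trend removal on such effects. Replicates differed by more than sampling noise (chi-square per gene 5.73 to 65.3).

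The replicate numbers are those of the labels. Deviations of same-numbered libraries from their group means correlated across genes at 0.167, 0.368 and 0.433 between the ligands, all over 0.1, so blocked values are given for that comparison. Between ligand libraries of different numbers the values ran from -0.472 to 0.296, so pairing of numbers 1 and 2 is not shown. Between ligand and DMSO libraries of the same number the values ran from -0.111 to 0.172, so pairing is not shown there either.

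The members and gene lists were chosen with earlier results of these data known. The members given with statistics in each comparison are those with an adjusted p under 0.05, or under 0.05 with the block between the ligands, and the 6 with the smallest p. Levels are also given for TFEB, TFE3 and the highest and lowest member of each role. Statistics of GAA and TFEB for MsOc3HBC against DMSO and of FNIP2 and FLCN for HBC530 against DMSO were added for completeness. Other members are named where their libraries did not overlap, where they stand at the end of a range, where replicate 3 stood apart or for their promoter, and these were chosen after their values were seen.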

Additional observations from a re-analysis of the deposited data

How the results depend on the processing

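Under all alternatives run, 0 members were called for either ligand against DMSO, and this held with each library left out in turn, with the replicate block and with the GC content and length trends removed. The block changed no other member's call than the 4 given for MsOc3HBC against HBC530. In that comparison 0 members were called by the unpaired edgeR test, 1 with DESeq2 (GAA), 4 with the replicate block and 7 without replicate 3 of both ligands. The median fold change of the members there was -0.00. It ranged from -0.08 (without replicate 3 of MsOc3HBC) to 0.06 (without replicate 1 of MsOc3HBC) with each library left out in turn, and was -0.07 without replicate 3 of both ligands, so its sign rests on single libraries. The members with the smallest p or a call in a comparison kept their direction under every alternative run, though not all kept their size. Some shrank with the GC content and length trends removed together with the replicate block. NAGLU and CTSA between the ligands then had -0.02 and -0.06, beside -0.17 and -0.16. ATP6V1B2 with HBC530 against DMSO had -0.04 beside -0.13, and FLCN with MsOc3HBC against DMSO -0.03 beside -0.12. RRAGC and ATP6V1B2 with MsOc3HBC against DMSO had 0.18 and -0.16, beside 0.20 and -0.15. GAA (-0.10) and TFEB (-0.05) are not among the members with the smallest p for MsOc3HBC against DMSO. They had 0.02 and 0.05 there after the same removal.

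Counts over all genes depended more on the settings. For HBC530 against DMSO 3 genes were called, against 5 with all libraries or limma-voom, 24 with DESeq2, 52 with no filter, 16 with the block, 10 and 16 with the trends removed without and with the block, and 2 to 6 with a library left out. For MsOc3HBC against DMSO 27 were called, against 151 with DESeq2, 250 with no filter, 149 with the block, 62 and 80 with the trends removed, and 6 (without replicate 1 of DMSO) to 76 (without replicate 3 of MsOc3HBC) with a library left out. Between the ligands 0 were called, against 4 with all libraries, 55 with DESeq2, 12 with no filter, 1990 with the block, 1 and 321 with the trends removed, and 1635 without replicate 3 of both. The cause was not tested. Depth limits the low members most, CTSZ (at least 45 counts a library) and TFEB (at least 131) among them.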
